A study of Mus musculus with 78 samples.

Results

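Glycolysis, lactate handling and glucose transport were described through 32 genes, all of which were found by name among the 52459 named genes of the mRNA count table. The set covers 3 glucose transporters, every step from glucose phosphorylation to lactate, the PFKFB enzymes that set the pace of phosphofructokinase, the 2 main lactate carriers and 4 genes of glycogen turnover. Glycolysis splits glucose into pyruvate and yields ATP without oxygen, and lactate dehydrogenase then turns pyruvate into lactate, which leaves the cell with a proton through monocarboxylate transporters. Cartilage has no blood vessels, and its chondrocytes draw most of their ATP from this route and export much of the carbon as lactate. Many of these genes are known direct targets of hypoxia-inducible factors (HIF), which bind short DNA sites that contain the letters ACGTG or GCGTG.

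The cartilage was engineered in culture from mouse induced pluripotent stem cells, and whole frozen constructs were homogenized for RNA. The inflammatory cytokines used were IL-1beta (interleukin-1 beta) at 1 ng/mL and TNF-alpha (the tumor necrosis factor) at 20 ng/mL. Treated cultures were sampled at 4, 12, 24 and 72 h beside untreated controls of the same times and of 0 h. The 39 mRNA libraries form 13 groups of 3, replicates a, b and c, and 38 were analysed, because the column of control 0 h b is misaligned. The labels give no strain, sex or cell line, and do not say whether the replicates were separate cultures, so p-values may measure only technical spread. Totals ranged between 11163263 and 68655350 counts per library. In IL-1beta 4 h b, which has the largest total, and in TNF-alpha 72 h b every count of the 32 genes was even. All other libraries held odd and even counts. The depth and precision of these libraries with even counts may therefore be overstated, and the cause was not tested. All 15 chondrocyte markers, among them Col2a1 and Acan, had a mean of 1 CPM or more in every group. A group of 10 predicted genes, none of them among the 32, differed more than 10-fold between 8 libraries, those of IL-1beta 4 h and of control 0 h and 4 h, and the other 30. TNF-alpha at 4 h therefore cannot be told apart from this split between libraries where it is set against control or IL-1beta at 4 h.

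Most of the 32 genes fell with both cytokines at 12 h, and at 72 h 16 of them were above control with IL-1beta while 23 were below control with TNF-alpha. At 12 h with IL-1beta 25 of the 32 fell and 2 rose, against a background in which 29.6% of 18857 tested genes were called, 14.5% higher and 15% lower. The median log2 fold change of the 32 was -0.84, beside -0.02 over all genes tested. TNF-alpha at 12 h, set against the same control libraries, had 25 lower and 1 higher (background 28.4% called, 14.6% higher and 13.8% lower) and a median of -0.87, beside -0.03 over all genes. A gene was called at an adjusted p under 0.05 in edgeR's quasi-likelihood test with Benjamini-Hochberg adjustment over all genes tested, and all 32 passed the low-count filter. At 72 h IL-1beta had 16 higher and 6 lower (background 38.9% called, 19.3% higher and 19.7% lower) with a median of 0.28, beside 0.00 over all genes. TNF-alpha at 72 h had 2 higher and 23 lower (background 36% called, 17.8% higher and 18.3% lower) with a median of -0.61, beside -0.01 over all genes.

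At 4 h 4 of the 32 were called higher and 11 lower with IL-1beta, which is 46.9% of them beside 32.7% of all genes (15.5% higher, 17.2% lower). Scaling by library totals alone gave 4 higher and 19 lower. TNF-alpha at 4 h had 1 higher and 9 lower, or 31.2% beside 21.5% of all genes (10.9% higher, 10.6% lower). This count was 5 without control 4 h a or TNF-alpha 4 h c, and 19 where control 12 h took the place of control 4 h. At 24 h IL-1beta had 3 higher and 19 lower (background 32.6%, 17% higher and 15.6% lower), and TNF-alpha had 0 higher and 22 lower (background 25%, 13.2% higher and 11.9% lower). In all, 15 genes were called lower at 12 h and higher at 72 h with IL-1beta: Slc2a3, Hk2, Gpi1, Pfkl, Pfkfb3, Aldoa, Tpi1, Pgam1, Eno1, Pkm, Ldha, Slc16a3, Pgm2, Gys1 and Pygl. Among these the 12 h calls of Hk2 and Pgm2 and the 72 h calls of Slc2a3 and Pgam1 were lost under at least 1 alternative. Without control 12 h a or c or IL-1beta 12 h a or b the value of Pgm2 at 12 h was -0.24 to -0.22, uncalled. With TNF-alpha 19 genes were called lower at 12, 24 and 72 h alike. How many of all genes tested showed either pattern over time was not counted, so these counts have no background beside them. Of the calls at 12 h, 24 of 27 with IL-1beta and 23 of 26 with TNF-alpha held under every alternative processing, and of those at 72 h 16 of 22 and 18 of 25 did.

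**Figure D1:**
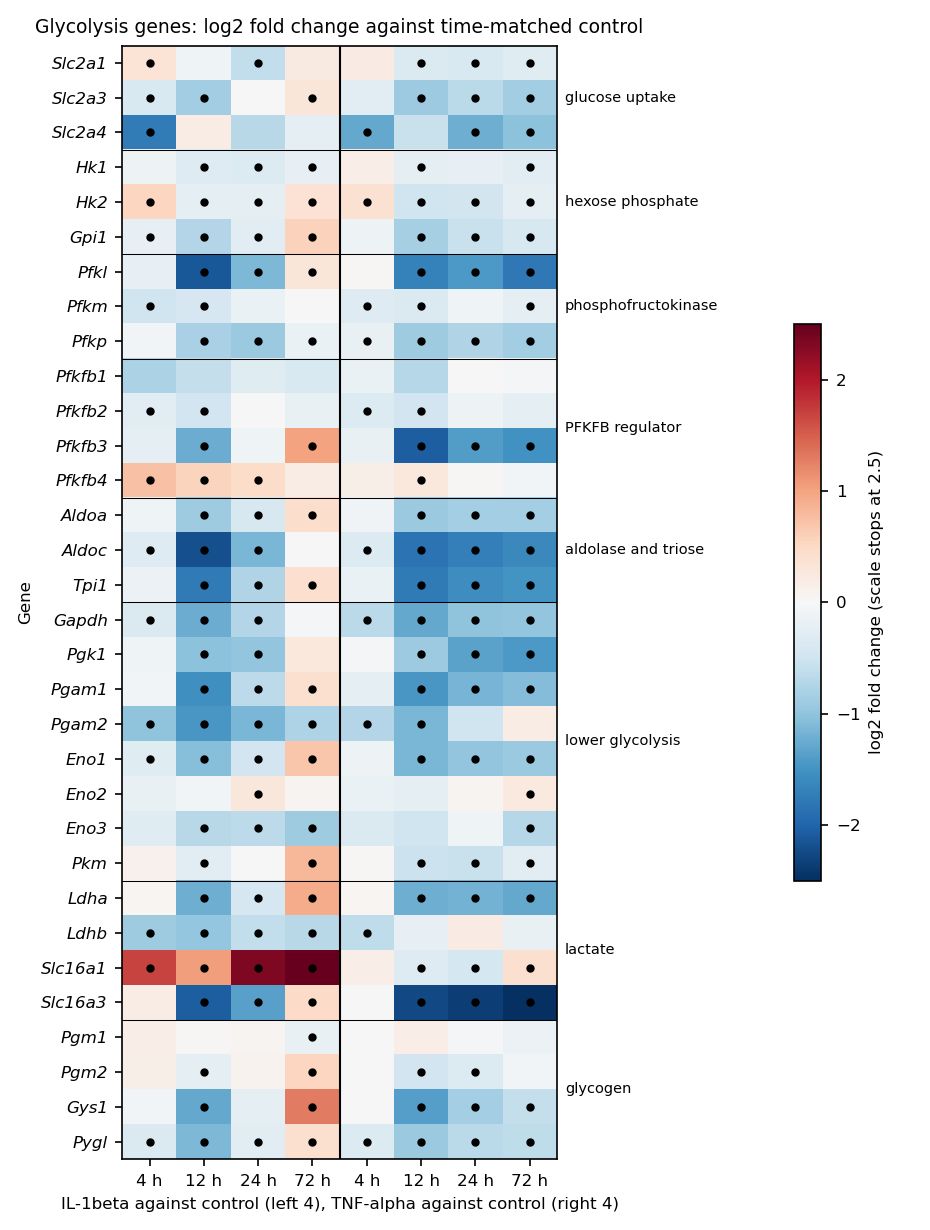
Log2 fold change of each of the 32 genes (rows, grouped by role) against control of the same time, for IL-1beta (left 4 columns) and TNF-alpha (right 4 columns) at 4, 12, 24 and 72 h. Black dots mark genes called at an adjusted p under 0.05. The colour scale stops at 2.5, and blue fills most of the 12 h columns of both cytokines and the 72 h column of TNF-alpha, whereas the 72 h column of IL-1beta is mostly red.

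The summed counts of the 32 genes lean on the most abundant of them, such as Pkm, Aldoa and Ldha (958379, 584517 and 434288 counts over the libraries). These summed counts followed the same course as most of the genes. They made up 0.815 ± 0.0163% of all gene counts in IL-1beta libraries at 72 h, 0.335 ± 0.0139% with TNF-alpha and 0.525 ± 0.0115% in controls (SD, n = 3 each). No other library reached the lowest of the 72 h IL-1beta libraries, 0.801%. At 12 h the shares were 0.385 ± 0.00745% with IL-1beta, 0.342 ± 0.0155% with TNF-alpha and 0.625 ± 0.0105% in controls, and both cytokine groups lay apart from the controls. At 4 h the means were 0.553%, 0.535% and 0.558% in the same order, the IL-1beta and control libraries overlapped, and the TNF-alpha libraries (0.527% to 0.540%) lay below all of both, in the contrast that crosses the split between libraries. A share of all counts also moves with the other genes: without the counts of Col2a1, the collagen II gene and a large part of the cartilage transcriptome, the 72 h means were 0.823% with IL-1beta, 0.343% with TNF-alpha and 0.556% in controls. These are whole constructs, so a change in the mix of cells and a change in the RNA of these genes within cells cannot be told apart.

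**Figure D2:**
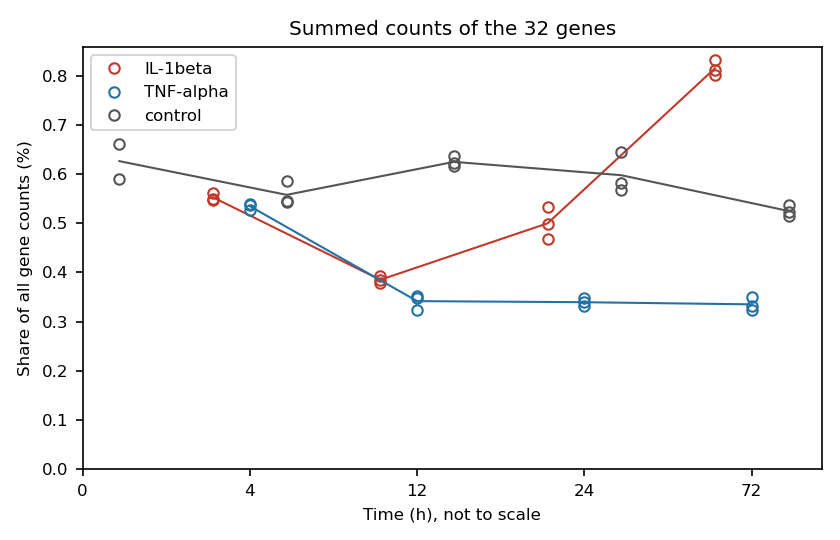
Share of all gene counts held by the 32 genes together, in percent, in each library (circles) with group means (lines), at 0, 4, 12, 24 and 72 h (time axis not to scale). Of the 4 IL-1beta groups that of 12 h lies lowest and that of 72 h highest, TNF-alpha libraries stay at about 0.34% from 12 h on, and controls range between 0.515% and 0.662%.

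Promoter windows are shown for 5 genes because these genes moved together, or in the case of Slc16a1 apart from the rest, in the comparisons below. Windows of 250 bases before to 50 bases after a RefSeq transcription start (build GRCm38.p6) were matched by symbol for 30 of the 32 genes, 47 windows in all. Capitals mark ACGTG or its reverse complement CACGT, read on both strands. The window of Pfkl, which also was lower at 12 h and higher at 72 h with IL-1beta, holds neither and is not shown. The lactate exporter Slc16a3 (chr11:120948817-120949116, plus strand) holds 2 such stretches, 27 and 14 bases before the start.
Slc16a3: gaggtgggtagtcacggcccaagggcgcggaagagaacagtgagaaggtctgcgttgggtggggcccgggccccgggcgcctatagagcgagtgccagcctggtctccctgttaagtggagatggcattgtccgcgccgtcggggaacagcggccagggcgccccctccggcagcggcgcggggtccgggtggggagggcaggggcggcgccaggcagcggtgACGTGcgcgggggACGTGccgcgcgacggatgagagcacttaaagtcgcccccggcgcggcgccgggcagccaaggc
The upstream of 2 windows of Ldha, lactate dehydrogenase A (chr7:46845554-46845853, plus strand), holds 3 stretches, 145, 48 and 34 bases before the start. Its other window holds none and is not shown.
Ldha: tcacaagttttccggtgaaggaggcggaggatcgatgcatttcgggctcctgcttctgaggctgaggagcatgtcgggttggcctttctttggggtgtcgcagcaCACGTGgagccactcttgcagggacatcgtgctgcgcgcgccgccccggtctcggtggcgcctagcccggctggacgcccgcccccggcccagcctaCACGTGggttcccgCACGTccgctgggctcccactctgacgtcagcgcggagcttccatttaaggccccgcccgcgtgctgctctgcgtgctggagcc
Pfkfb3, the PFKFB enzyme in which the kinase most outweighs the phosphatase, has 2 windows, and this one (chr2:11502041-11502340, minus strand) holds 1 stretch 53 bases before the start.
Pfkfb3: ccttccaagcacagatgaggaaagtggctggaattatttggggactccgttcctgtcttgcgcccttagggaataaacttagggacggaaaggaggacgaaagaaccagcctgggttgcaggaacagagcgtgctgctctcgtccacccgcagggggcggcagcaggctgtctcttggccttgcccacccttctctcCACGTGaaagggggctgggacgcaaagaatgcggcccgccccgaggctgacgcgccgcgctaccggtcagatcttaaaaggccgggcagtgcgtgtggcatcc
Slc16a1, the carrier that differed from Slc16a3 in its changes with IL-1beta, holds 2 stretches (chr3:104638414-104638713, plus strand), 200 bases before and 20 after the start.
Slc16a1: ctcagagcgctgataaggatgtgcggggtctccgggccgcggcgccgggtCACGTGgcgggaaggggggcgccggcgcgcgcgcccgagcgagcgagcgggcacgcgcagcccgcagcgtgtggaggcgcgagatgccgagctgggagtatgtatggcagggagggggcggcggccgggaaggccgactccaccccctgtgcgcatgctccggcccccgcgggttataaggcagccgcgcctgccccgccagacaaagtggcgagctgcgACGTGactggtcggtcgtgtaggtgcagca
The triosephosphate isomerase gene Tpi1 (chr6:124814109-124814408, minus strand), which fell and rose in the same comparisons as Ldha, holds none in this window.
Tpi1: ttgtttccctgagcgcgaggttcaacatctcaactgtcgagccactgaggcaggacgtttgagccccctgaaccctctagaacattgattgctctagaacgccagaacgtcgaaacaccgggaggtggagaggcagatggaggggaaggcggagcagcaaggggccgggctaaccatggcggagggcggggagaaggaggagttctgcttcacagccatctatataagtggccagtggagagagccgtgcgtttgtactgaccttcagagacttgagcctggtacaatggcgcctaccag
Over the set, ACGTG was found in 22 of 47 windows (46.8%), beside 19.6% of all 32851 RefSeq windows of this length, and in 18 of 30 genes (60%), beside 21.8% of all 27025 genes. These shares are not fully alike: the set has more windows per gene, and overlapping windows, as for Aldoa, can hold the same site. The background also includes genes that did not pass the low-count filter here. The other core, GCGTG or CACGC, was in 51.1% of the windows of the set and 32.4% of all windows, and the palindrome CACGTG, which overlaps ACGTG, was in 10.6% and 7.15%. Among genes with a window, ACGTG was in 10 of the 15 called higher with IL-1beta at 72 h, 2 of the 6 called lower and 6 of the 9 not called. At 72 h with TNF-alpha it was in 1 of the 2 higher, 14 of the 21 lower and 3 of the 7 not called. At 12 h the counts were 1 of 2 higher, 15 of 24 lower and 2 of 4 not called with IL-1beta, and 0 of 1, 17 of 24 and 1 of 5 with TNF-alpha. No link between the letters and the calls was tested. These matches are a description of letters and no measure of binding.

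Glucose enters through the SLC2A carriers. Slc2a1, the main carrier of basal glucose uptake, had 531, 455 and 427 CPM with IL-1beta at 4 h and 312, 423 and 385 CPM in controls, which do not overlap. CPM are counts scaled to a common library size by the trimmed mean of M-values (TMM), and libraries are given in the order a, b, c. The log2 fold change was 0.34 ± 0.09 (adjusted p = 0.00437), but without control 4 h a it was 0.23 and no longer called (adjusted p = 0.0594). At 24 h Slc2a1 fell with both cytokines, with log2 fold changes of -0.62 ± 0.09 (adjusted p = 1.70e-06) for IL-1beta and -0.37 ± 0.09 (adjusted p = 0.00221) for TNF-alpha. At 72 h it had 233 ± 10.5 CPM with IL-1beta, 164 ± 8.70 with TNF-alpha and 201 ± 5.44 in controls (SD, n = 3 each). The 72 h difference was not called with IL-1beta (0.22 ± 0.09) and was called with TNF-alpha (-0.30 ± 0.09), where it was lost with library totals alone (-0.18, adjusted p = 0.0957) and without TNF-alpha 72 h b (-0.26, adjusted p = 0.0592).

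Slc2a3, a carrier of high glucose affinity, fell at 12 h, with log2 fold changes of -0.86 ± 0.11 (adjusted p = 9.89e-08) for IL-1beta and -0.91 ± 0.11 (adjusted p = 2.78e-08) for TNF-alpha. At 72 h it had 41.1, 36.0 and 38.2 CPM with IL-1beta, 18.9, 15.7 and 16.9 CPM with TNF-alpha and 34.5, 28.6 and 30.5 CPM in controls. The IL-1beta libraries were all above the controls (0.30 ± 0.10, adjusted p = 0.0188) and the TNF-alpha libraries all below them (-0.87 ± 0.11, adjusted p = 3.49e-08). The IL-1beta call at 72 h was lost without control 72 h b or c or IL-1beta 72 h a (0.24 to 0.27, adjusted p between 0.0709 and 0.112). Slc2a4, the insulin-responsive carrier of muscle and fat, was close to absent, at 0.287 to 2.47 CPM over all libraries. It was called lower with IL-1beta at 4 h (-1.74 ± 0.37, adjusted p = 2.99e-04) and with TNF-alpha at 4, 24 and 72 h (-1.28, -1.22 and -1.03). Each TNF-alpha call was lost without 1 of several libraries: control 4 h a or c or TNF-alpha 4 h a or c (-1.26 to -0.92), control 24 h c or TNF-alpha 24 h b or c (-1.10 to -1.06), and control 72 h a or TNF-alpha 72 h a or c (-1.06 to -0.74). Without TNF-alpha 4 h b the 4 h value was -2.03, and against control 12 h it turned to 0.18.

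Hexokinases trap glucose as glucose 6-phosphate, and Gpi1 turns this into fructose 6-phosphate. Hk2, the inducible hexokinase, rose at 4 h: it had 182, 144 and 146 CPM with IL-1beta and 134, 141 and 145 CPM with TNF-alpha, against 95.9, 118 and 109 CPM in controls. No cytokine library overlapped the controls, and the log2 fold changes were 0.55 ± 0.09 (adjusted p = 5.83e-06) and 0.38 ± 0.09 (adjusted p = 0.00158). By 12 h TNF-alpha lowered Hk2 (-0.50 ± 0.09, adjusted p = 4.97e-05), and at 72 h it had 84.5 ± 2.07 CPM with IL-1beta and 66.0 ± 10.5 CPM in controls (0.36 ± 0.09, adjusted p = 0.00145). The small IL-1beta falls of Hk2 were called at 12 h (-0.23) and 24 h (-0.24), but the 12 h call was lost without any 1 library other than IL-1beta 12 h c (-0.25 to -0.19). The 24 h call was lost without any 1 other than control 24 h b (-0.25 to -0.15). That of TNF-alpha at 72 h (-0.25) was lost without control 72 h c or any TNF-alpha 72 h library (-0.26 to -0.13).

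Hk1, the constitutive hexokinase, moved little. Its called differences lay between -0.35 (IL-1beta, 24 h) and -0.20 (IL-1beta, 72 h), 5 in all. The call with IL-1beta at 72 h was lost without control 72 h b or c or IL-1beta 72 h a or c (-0.21 to -0.15), that with TNF-alpha at 12 h without any 1 library other than TNF-alpha 12 h b (-0.23 to -0.17), and that with TNF-alpha at 72 h with library totals alone (-0.17). Per length, Hk2 stood at 1.04 ± 0.0541 times Hk1 with IL-1beta at 72 h, 0.729 ± 0.0548 with TNF-alpha and 0.705 ± 0.0504 in controls (ratio of CPM per kilobase, SD, n = 3 each), and the IL-1beta ratios did not overlap the others. Gpi1 had 246, 228 and 239.8 CPM with IL-1beta at 72 h, 125, 119 and 116 CPM with TNF-alpha and 165, 154 and 157 CPM in controls. The 3 groups did not overlap, with changes of 0.58 ± 0.07 (adjusted p = 3.53e-09) and -0.41 ± 0.07 (adjusted p = 5.42e-06), and at 12 h both cytokines lowered it (-0.72 and -0.84).

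Phosphofructokinase commits sugar to glycolysis, and its 3 genes responded unequally. Pfkl, the liver type, had 104, 110.4 and 119 CPM with IL-1beta at 12 h, 142, 151 and 153 CPM with TNF-alpha and 475, 449 and 518 CPM in controls. Both cytokine groups lay far below the controls, with log2 fold changes of -2.11 ± 0.09 (adjusted p = 2.84e-20) and -1.69 ± 0.08 (adjusted p = 8.00e-18). The 72 h levels of Pfkl were 491, 460.1 and 474 CPM with IL-1beta, 111, 112 and 112 CPM with TNF-alpha and 366, 367 and 420.0 CPM in controls, so that IL-1beta libraries were highest (0.31 ± 0.08, adjusted p = 0.00253) and TNF-alpha libraries lowest (-1.78 ± 0.08, adjusted p = 2.01e-18).

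Pfkp, the platelet type, fell at 12 h with IL-1beta (-0.81 ± 0.07) and TNF-alpha (-0.89 ± 0.07) and still was lower with TNF-alpha at 72 h (-0.86 ± 0.07, adjusted p = 5.28e-13). With IL-1beta at 72 h Pfkp was back near control at 253 ± 3.66 CPM, beside 284 ± 6.30 CPM in controls, a call of -0.17 that was lost without control 72 h b or any of the 3 IL-1beta libraries (-0.15 to -0.18, adjusted p between 0.0625 and 0.106). Pfkm, the muscle type, fell less at 12 h, with -0.42 for IL-1beta and -0.37 for TNF-alpha. Its 72 h value was -0.01 with IL-1beta, not called, and -0.23 with TNF-alpha, a call that was lost with library totals alone (-0.12) and without control 72 h b or c or TNF-alpha 72 h a or c (-0.23 to -0.21). Per length the balance of Pfkl over Pfkp was 1.03 ± 0.0205 with IL-1beta at 12 h, 1.46 ± 0.114 with TNF-alpha and 2.55 ± 0.280 in controls. It was 3.77 ± 0.112 with IL-1beta at 72 h, 1.44 ± 0.134 with TNF-alpha and 2.72 ± 0.206 in controls (ratios of CPM per kilobase, SD, n = 3 each), with no overlap of the 3 groups at either time.

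The PFKFB enzymes make and break fructose 2,6-bisphosphate, the activator of phosphofructokinase. Pfkfb3 moved most of the 4. It had 35.1, 29.7 and 32.7 CPM with IL-1beta at 12 h, 18.6, 20.0 and 16.5 CPM with TNF-alpha and 78.5, 81.0 and 71.5 CPM in controls. All 3 groups lay apart, and the changes were -1.25 ± 0.10 (adjusted p = 1.17e-12) and -2.07 ± 0.10 (adjusted p = 4.32e-18). At 72 h it had 108, 102 and 101 CPM with IL-1beta, 20.8, 17.6 and 16.2 CPM with TNF-alpha and 52.1, 50.5 and 52.9 CPM in controls. IL-1beta raised it by 1.00 ± 0.09 (adjusted p = 2.49e-11), while with TNF-alpha it stayed below control, at -1.51 ± 0.10 (adjusted p = 7.59e-15).

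Pfkfb4 differed from it and was higher with IL-1beta at 4, 12 and 24 h, by 0.72 ± 0.09 (adjusted p = 6.34e-08), 0.56 ± 0.10 (adjusted p = 2.71e-05) and 0.45 ± 0.10 (adjusted p = 2.92e-04). At 4 h it had 18.3, 17.6 and 17.5 CPM with IL-1beta, 10.5, 13.8 and 11.3 CPM with TNF-alpha and 11.2, 9.84 and 11.2 CPM in controls, and the IL-1beta libraries stood above all others. The TNF-alpha call at 12 h (0.26) was lost without control 12 h a or TNF-alpha 12 h a or c (0.21 to 0.27, adjusted p between 0.0742 and 0.172). Pfkfb2 was lower with both cytokines at 12 h (-0.49 ± 0.11 and -0.48 ± 0.11), while its 4 h call with IL-1beta was lost without control 4 h a or c or IL-1beta 4 h b or c (-0.26 to -0.20) and that with TNF-alpha without control 4 h a or c or TNF-alpha 4 h c (-0.34 to -0.28). Pfkfb1, the liver enzyme, ran at 0.313 to 1.65 CPM and was the member called in none of the 8 cytokine comparisons.

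**Figure D3:**
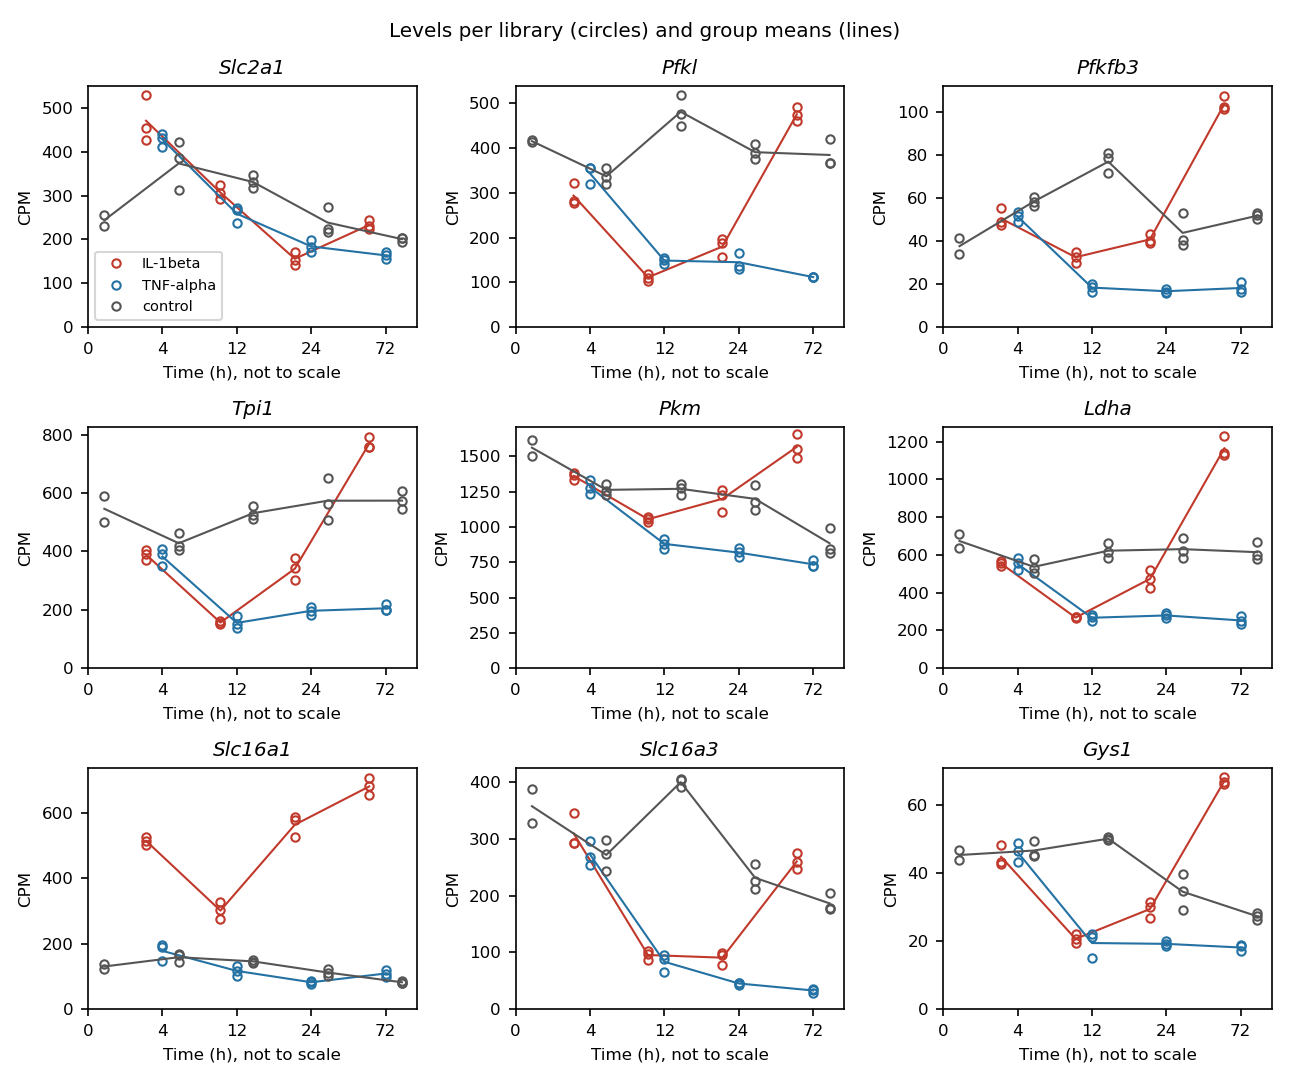
CPM of 9 of the genes in each library (circles) with group means (lines) for IL-1beta, TNF-alpha and control at 0, 4, 12, 24 and 72 h (time axis not to scale, vertical axes start at 0). For Pfkl, Pfkfb3, Tpi1, Ldha, Slc16a3 and Gys1 the IL-1beta line dips at 12 h and ends above control at 72 h while the TNF-alpha line stays low from 12 h on, and Slc16a1 is high with IL-1beta at every time.

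Aldolase cuts fructose 1,6-bisphosphate into trioses and Tpi1 makes them interchangeable. Aldoa, the main aldolase, had 481, 468 and 502 CPM with IL-1beta at 12 h, 486, 457 and 465 CPM with TNF-alpha and 889, 859 and 939 CPM in controls. It was lower in all cytokine libraries, with log2 fold changes of -0.89 ± 0.07 (adjusted p = 1.17e-12) and -0.93 ± 0.07 (adjusted p = 3.97e-13). At 72 h it was higher with IL-1beta (0.44 ± 0.07, adjusted p = 2.20e-06) and lower with TNF-alpha (-0.85 ± 0.07, adjusted p = 2.70e-12). Aldoc, the brain-type aldolase, had 7.11 ± 1.08 CPM with IL-1beta at 12 h, 8.92 ± 1.68 CPM with TNF-alpha and 32.1 ± 2.37 CPM in controls (SD, n = 3 each), the largest fall of the set with IL-1beta at this time (-2.19 ± 0.13, adjusted p = 5.51e-16). Its IL-1beta level returned to 34.2 ± 0.181 CPM at 72 h, beside 34.1 ± 1.44 CPM in controls (0.01 ± 0.10, not called), while with TNF-alpha it was at 11.1 ± 0.161 CPM (-1.62 ± 0.11, adjusted p = 2.95e-14).

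Tpi1 had 160.5, 153 and 155 CPM with IL-1beta at 12 h, 152, 136 and 177 CPM with TNF-alpha and 526, 511 and 555 CPM in controls. Both falls were of like size, -1.77 ± 0.09 (adjusted p = 4.56e-17) and -1.78 ± 0.09 (adjusted p = 3.20e-17). Levels of Tpi1 at 72 h were 793, 756 and 759 CPM with IL-1beta, 219, 198 and 198 CPM with TNF-alpha and 572, 544 and 605 CPM in controls, and the 3 groups did not overlap (0.42 ± 0.09 (adjusted p = 2.02e-04) and -1.49 ± 0.09 (adjusted p = 2.28e-15)).

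The lower part of the pathway was less uniform. Gapdh, which makes 1,3-bisphosphoglycerate, Pgk1, which makes ATP from it, Pgam1, the main phosphoglycerate mutase, and Eno1, the main enolase, all fell at 12 h. In that order the log2 fold changes were -1.25 ± 0.09, -1.03 ± 0.12, -1.54 ± 0.15 and -1.07 ± 0.13 with IL-1beta and -1.29 ± 0.09, -0.90 ± 0.12, -1.46 ± 0.14 and -1.15 ± 0.12 with TNF-alpha. At 72 h they were still lower with TNF-alpha (-0.99, -1.44, -1.07 and -0.93). With IL-1beta at 72 h Eno1 was higher (0.69 ± 0.12, adjusted p = 1.54e-05), Gapdh (-0.05) and Pgk1 (0.26) were not called, and the call of Pgam1 (0.40) was lost without control 72 h b (0.34, adjusted p = 0.0557) or IL-1beta 72 h c (0.34, adjusted p = 0.0512). These 4 genes have near-identical copies elsewhere in the mouse genome, and how reads that match several places were counted is not given. Their levels per length were low, for Gapdh 18.8 ± 0.866 CPM per kilobase in controls at 12 h beside 193 ± 8.04 for Tpi1, so how much of their RNA these counts hold is uncertain. Copies listed by name in the table held few counts, 54 for those of Gapdh, 7 for Pgk1 and 131 for Pgam1, summed over the libraries.

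Pkm, pyruvate kinase, which makes pyruvate and ATP, had 1661, 1488 and 1553 CPM with IL-1beta at 72 h, 762, 721 and 723 CPM with TNF-alpha and 812, 847 and 994 CPM in controls. IL-1beta libraries lay above the controls (0.83 ± 0.07, adjusted p = 1.39e-12) and TNF-alpha libraries below them (-0.27 ± 0.07, adjusted p = 0.00169), and the TNF-alpha call was lost with library totals alone (-0.15, adjusted p = 0.0601). At 12 h Pkm was lower with IL-1beta (-0.27 ± 0.07) and TNF-alpha (-0.53 ± 0.07).

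The tissue-restricted isoforms differed from the rest. Pgam2, the muscle mutase, was called lower with IL-1beta at all 4 times, most at 12 h (-1.46) and least at 72 h (-0.78), with 2.98 ± 0.390 CPM at 24 h beside 6.58 ± 1.02 CPM in controls, and the 72 h call was lost without control 72 h a (-0.62, adjusted p = 0.0552). Eno3, the muscle enolase, was lower at 72 h with IL-1beta (-0.89 ± 0.17, adjusted p = 5.83e-05) and TNF-alpha (-0.72 ± 0.16, adjusted p = 6.00e-04), at 2.76 ± 0.356 and 3.14 ± 0.177 CPM beside 5.16 ± 1.03 CPM in controls. Skeletal muscle markers were low in all libraries: 12 markers summed to 3.84 to 4.07 CPM with IL-1beta at 72 h, 5.46 to 6.71 with TNF-alpha and 12.0 to 13.2 in controls, and 2 of the 12 reached a mean of 1 CPM in each of these groups. Of the markers, Tnnt3 was called lower at 72 h with IL-1beta (-2.49 ± 0.22) and TNF-alpha (-1.53 ± 0.19). Pygm was also called lower there (-0.94 ± 0.25 and -0.71 ± 0.23). The part of muscle-type cells in the levels of Pgam2 and Eno3 was not tested. Eno2, the neuronal enolase, had values between -0.25 and 0.29 over the 8 comparisons. Its call with IL-1beta at 24 h was lost without control 24 h b or c or IL-1beta 24 h a or b (0.25 to 0.27), and that with TNF-alpha at 72 h (0.24) without control 72 h b or c or TNF-alpha 72 h a or c (0.16 to 0.22).

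Lactate genes came apart from each other. Ldha, the isoform that favours lactate formation, had 269.6, 265 and 269 CPM with IL-1beta at 12 h, 269, 250.5 and 281 CPM with TNF-alpha and 616, 586 and 665 CPM in controls. Both falls were equal to 2 decimals, -1.22 ± 0.08 (adjusted p = 9.95e-15) and -1.22 ± 0.08 (adjusted p = 8.86e-15). After 72 h Ldha stood at 1228, 1127 and 1140 CPM with IL-1beta, 277, 247 and 233 CPM with TNF-alpha and 578, 597 and 668 CPM in controls. IL-1beta libraries lay above and TNF-alpha libraries below every control, at 0.92 ± 0.08 (adjusted p = 2.82e-12) and -1.28 ± 0.08 (adjusted p = 1.70e-15). Ldhb, the isoform that favours pyruvate formation, was called lower with IL-1beta at all 4 times (-0.89, -0.97, -0.61 and -0.70) and with TNF-alpha only at 4 h (-0.63). That TNF-alpha contrast crosses the split between libraries. With control 12 h in place of control 4 h the call was lost, at 19.9 ± 1.49 CPM with TNF-alpha beside 24.8 ± 1.55 CPM. Per length the ratio of Ldha to Ldhb at 72 h was 23.5 ± 2.15 with IL-1beta, 3.53 ± 0.139 with TNF-alpha and 7.68 ± 1.34 in controls (CPM per kilobase, SD, n = 3 each). The 3 groups did not overlap, the lowest IL-1beta library at 21.1 and the highest control at 9.20.

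Slc16a3 (MCT4), the low-affinity carrier that exports lactate from glycolytic cells, had 97.1, 86.6 and 102 CPM with IL-1beta at 12 h, 96.0, 88.4 and 65.7 CPM with TNF-alpha and 406, 403 and 390.5 CPM in controls. It fell with both, at -2.07 ± 0.11 (adjusted p = 8.95e-17) for IL-1beta and -2.26 ± 0.11 (adjusted p = 7.97e-18) for TNF-alpha. Slc16a3 at 72 h had 275, 248 and 258 CPM with IL-1beta, 35.5, 28.8 and 34.1 CPM with TNF-alpha and 177, 178 and 204 CPM in controls. IL-1beta libraries were above the controls (0.48 ± 0.11, adjusted p = 3.59e-04), and the TNF-alpha value (-2.51 ± 0.12, adjusted p = 8.76e-19) was the largest fall of any of the 32 genes in the 8 cytokine comparisons.

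Slc16a1 (MCT1), a carrier of higher affinity that moves lactate either way, was the member called higher with IL-1beta at all 4 times. It had 503, 527 and 515 CPM with IL-1beta at 4 h, 147, 197 and 189.8 CPM with TNF-alpha and 144, 164 and 168 CPM in controls. IL-1beta libraries stood far above all others, 1.70 ± 0.09 (adjusted p = 2.37e-16), and the later changes were 1.05 ± 0.09 at 12 h, 2.33 ± 0.10 at 24 h and 3.06 ± 0.10 at 72 h. Its 72 h levels were 706, 682 and 656 CPM with IL-1beta, 108, 98.0 and 121 CPM with TNF-alpha and 79.5, 80.2 and 86.5 CPM in controls. TNF-alpha lowered it at 24 h (-0.45 ± 0.09) and raised it at 72 h (0.41 ± 0.09, adjusted p = 7.67e-04), and its 12 h call (-0.32) was lost without TNF-alpha 12 h c (-0.23, adjusted p = 0.0891). Per length, Slc16a1 over Slc16a3 was 3.84 ± 0.655 with IL-1beta at 12 h, 1.70 ± 0.154 with TNF-alpha and 0.439 ± 0.00895 in controls. At 72 h it was 3.15 ± 0.141, 4.00 ± 0.308 and 0.530 ± 0.0185 in the same order (ratios of CPM per kilobase, SD, n = 3 each), so that both cytokine groups stood above control at both times. At 72 h both carriers were above control with IL-1beta, while with TNF-alpha Slc16a1 was above and Slc16a3 below control.

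Glycogen genes joined the pattern in part. Gys1, the glycogen synthase of tissues other than liver, had 20.4, 19.4 and 22.0 CPM with IL-1beta at 12 h, 22.0, 21.2 and 15.0 CPM with TNF-alpha and 50.5, 50.0 and 49.6 CPM in controls. It was lower with both cytokines, at -1.28 ± 0.10 (adjusted p = 1.55e-12) and -1.37 ± 0.10 (adjusted p = 2.34e-13). By 72 h Gys1 had 68.1, 66.0 and 66.8 CPM with IL-1beta, 16.9, 18.6 and 18.8 CPM with TNF-alpha and 27.2, 28.3 and 26.2 CPM in controls. No groups overlapped there, and IL-1beta gave 1.30 ± 0.09 (adjusted p = 8.24e-14), TNF-alpha -0.59 ± 0.10 (adjusted p = 8.21e-06). Pygl, a glycogen phosphorylase, fell at 12 h (-1.12 ± 0.08 with IL-1beta, -0.92 ± 0.08 with TNF-alpha) and at 72 h was higher with IL-1beta (0.41 ± 0.08, adjusted p = 4.53e-05) and lower with TNF-alpha (-0.64 ± 0.08, adjusted p = 2.91e-08). Pgm2 was higher with IL-1beta at 72 h (0.54 ± 0.08, adjusted p = 8.36e-07) and Pgm1 had values between -0.19 and 0.17 over the 8 comparisons. Its lone call, with IL-1beta at 72 h, was lost without control 72 h b or c or any IL-1beta library (-0.20 to -0.16). The symbols Pgm1 and Pgm2 have been exchanged between mouse annotations, so which of them is the main phosphoglucomutase in this table is uncertain.

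Levels per length, as counted, were led by the same 4 genes in the 3 groups described here. The places of Gapdh, Pgk1, Pgam1 and Eno1 in this order are uncertain, because how much of their RNA the counts hold is not known. In controls at 12 h Pkm stood at 254 ± 7.91 CPM per kilobase, Aldoa at 238 ± 10.8, Tpi1 at 193 ± 8.04 and Ldha at 188 ± 12.1 (SD, n = 3 each), followed by Slc2a1 at 94.4 ± 4.33. Tpi1 and Ldha were within their spreads of each other, and Pkm and Aldoa differed by less than the sum of theirs. With IL-1beta at 72 h Ldha led at 352 ± 16.7 CPM per kilobase, before Pkm at 313 ± 17.5, Tpi1 at 279 ± 7.49, Aldoa at 269 ± 11.2 and Slc16a1 at 154 ± 5.70. With TNF-alpha at 72 h Pkm led at 147 ± 4.65 CPM per kilobase, before Aldoa at 110.3 ± 3.26, Ldha at 76.3 ± 6.83 and Tpi1 at 74.4 ± 4.33. The lowest levels in controls at 12 h were those of Slc2a4, at 0.172 ± 0.0486, and Pfkfb1, at 0.324 ± 0.0185 CPM per kilobase.

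The cytokines were also set against each other. At 4 h 3 of the 32 were higher and 1 lower with IL-1beta than with TNF-alpha, 12.5% of them beside 12.4% of all genes (5.71% higher, 6.66% lower), and 2 without TNF-alpha 4 h b. At 12 h 4 were higher and 2 lower (background 10.6%, 4.7% higher and 5.88% lower). Beyond Slc16a1 (1.37 ± 0.09, adjusted p = 1.38e-12), the 12 h differences that held under every alternative were Pfkfb3 (0.82 ± 0.10, adjusted p = 6.24e-07), Pfkl (-0.42 ± 0.08, adjusted p = 6.43e-04) and Ldhb (-0.77 ± 0.13, adjusted p = 1.04e-04). At 24 h 19 were higher and 2 lower (background 20.1%, 9.31% higher and 10.8% lower), and at 72 h 23 were higher and 2 lower (background 39.8%, 19.4% higher and 20.4% lower) with a median of 0.96, beside -0.01 over all genes. The largest 72 h differences were Slc16a3 (2.99 ± 0.12, adjusted p = 8.53e-21), Slc16a1 (2.65 ± 0.10, adjusted p = 2.26e-21), Pfkfb3 (2.51 ± 0.10, adjusted p = 7.05e-21), Ldha (2.21 ± 0.08, adjusted p = 1.63e-21) and Pfkl (2.09 ± 0.08, adjusted p = 2.61e-20). Pgam2 (-0.97) and Ldhb (-0.52) were lower with IL-1beta.

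The change of each effect with time was tested as the effect at 72 h minus the effect at 12 h. With IL-1beta it was higher for 21 genes and lower for 1 (background 28.2%, 14.1% each way), and 20 of the 21 genes had been called lower at 12 h with both cytokines. This overlap is in part built in, because the IL-1beta and control libraries of 12 h also enter the difference. Its share over all genes was not counted. Gys1 (2.58 ± 0.14, adjusted p = 1.86e-16), Slc16a3 (2.55 ± 0.15, adjusted p = 3.44e-15), Pfkl (2.42 ± 0.12, adjusted p = 1.87e-17), Pfkfb3 (2.25 ± 0.13, adjusted p = 2.18e-15), Aldoc (2.20 ± 0.16, adjusted p = 6.98e-13), Tpi1 (2.19 ± 0.13, adjusted p = 1.92e-15) and Ldha (2.14 ± 0.11, adjusted p = 7.53e-17) changed most. Pfkfb4 was the one lower (-0.37), a call that was lost without control 12 h a, control 72 h a or b, IL-1beta 12 h a or b or IL-1beta 72 h a or c (-0.38 to -0.32). With TNF-alpha 7 were higher and 1 lower (background 8.54%, 3.64% higher and 4.9% lower), among them Pgam2 (1.34 ± 0.35, adjusted p = 0.0107), Gys1 (0.78 ± 0.14, adjusted p = 2.43e-04), Slc16a1 (0.73 ± 0.13, adjusted p = 3.15e-04), Pfkfb3 (0.56 ± 0.14, adjusted p = 0.00761) and Gpi1 (0.43 ± 0.09, adjusted p = 0.0022).

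**Figure D4:**
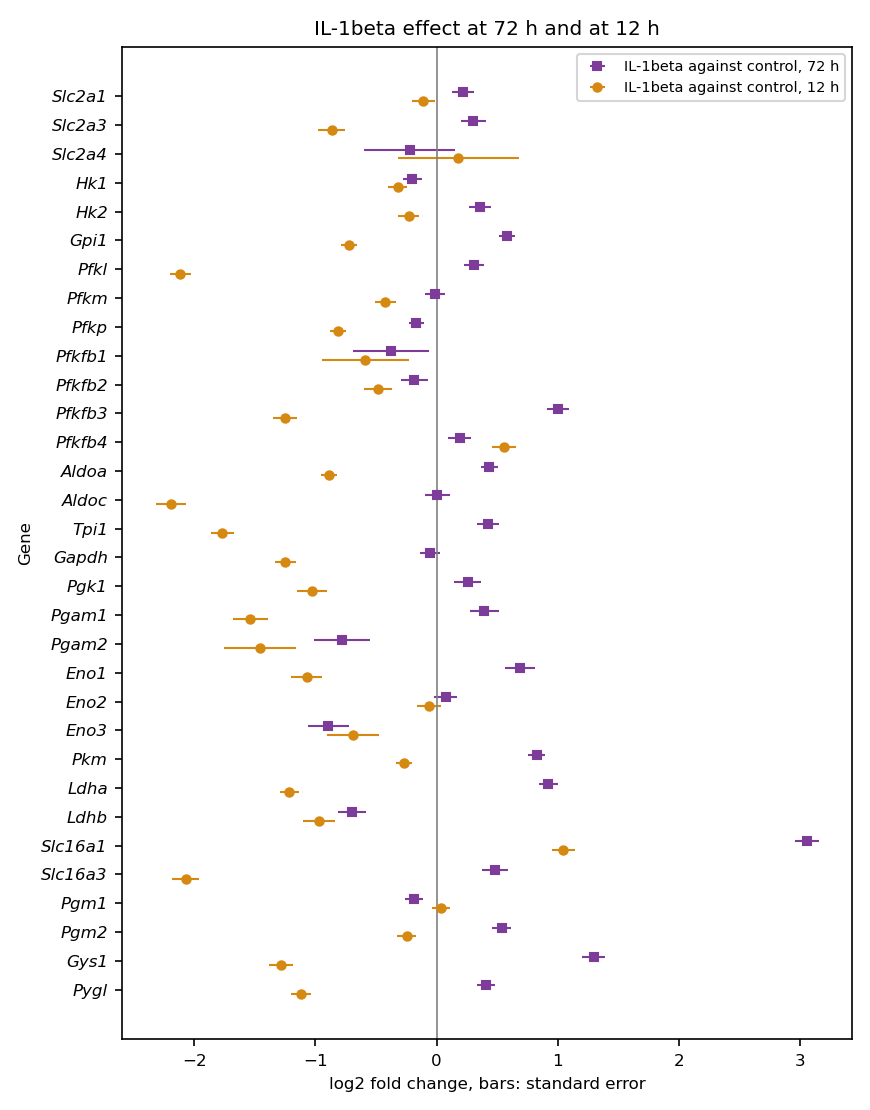
Log2 fold change of IL-1beta against control at 72 h (squares) and at 12 h (circles) for the 32 genes, with standard errors as bars and a grey line at no change. Squares lie to the right of circles for most genes. Slc16a1 and Pfkfb4 are right of the line at both times. Several genes are left of it at both, among them Hk1, Pfkp, Ldhb, Pgam2 and Eno3.

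Controls changed with time too. At 4 h 5 genes were higher and 9 lower than at 0 h (background 20.4%, 10.2% higher and 10.2% lower), but the 14 calls became 8 without control 0 h a, 4 without control 0 h c and 7 without control 4 h c. These 3 held under every alternative: Slc2a1 (0.61 ± 0.10), Pfkfb3 (0.64 ± 0.11) and Aldoc (0.57 ± 0.12). At 24 h 0 were higher and 13 lower than at 12 h (background 21.7%, 10.2% higher and 11.5% lower), led by Pfkfb3 (-0.81 ± 0.09) and Slc16a3 (-0.79 ± 0.11). At 72 h 3 were higher and 16 lower than at 12 h (background 37.1%, 18.7% higher and 18.3% lower): Slc16a3 (-1.10 ± 0.11), Gys1 (-0.88 ± 0.10) and Slc16a1 (-0.83 ± 0.10) fell, and Eno3 (0.83 ± 0.17) and Ldhb (0.63 ± 0.12) rose. Ldha (-0.02 ± 0.08) and Tpi1 (0.11 ± 0.09) were not called. The level of Gys1 with IL-1beta at 72 h, 67.0 ± 1.04 CPM, was above that of every control group, whose means lay between 27.2 and 50.0 CPM. Not all genes called higher with IL-1beta at 72 h were above every control group. Slc16a3 had a mean of 260.2 CPM there, beside 357.5, 271.6 and 399.9 CPM in controls at 0, 4 and 12 h. Hk2 had 84.5 CPM, beside 109, 107.8 and 97.3 CPM in these controls.

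Genes of joining routes were counted from lists that were not picked for how they moved here, although earlier results of these data were known. Of all genes tested, 29.6% were called with IL-1beta and 28.4% with TNF-alpha at 12 h, and 38.9% and 36% at 72 h. About equal numbers of these calls were higher and lower. A list called at about these shares, here or below, gives no result about its genes. The pentose phosphate pathway, which draws on glucose 6-phosphate to make NADPH, went the other way at 12 h: 5 of 7 genes rose and 0 fell with either cytokine, with medians of 0.50 (IL-1beta) and 0.32 (TNF-alpha). G6pdx, its entry enzyme, rose by 1.06 ± 0.08 with IL-1beta and 1.01 ± 0.08 with TNF-alpha at 12 h, and Pgd, the second NADPH-making enzyme, by 1.19 ± 0.09 and 0.77 ± 0.09. At 72 h 4 of 7 rose with IL-1beta, and 5 rose and 1 fell with TNF-alpha. Of 16 citric acid cycle genes 3 rose with IL-1beta and 6 with TNF-alpha at 12 h, and 9 and 8 at 72 h, and 0 fell at either time, with changes such as 0.33 ± 0.05 and 0.62 ± 0.05 for citrate synthase (Cs).

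At the entry of pyruvate to mitochondria, Pdk1, the kinase that shuts pyruvate dehydrogenase, fell at 12 h with both cytokines and parted at 72 h. It changed by -2.20 ± 0.08 at 12 h and 0.52 ± 0.07 at 72 h with IL-1beta, and by -2.10 ± 0.08 and -1.52 ± 0.08 with TNF-alpha. Pcx, pyruvate carboxylase, rose at both times (1.19 ± 0.08 and 0.92 ± 0.08 with IL-1beta, 0.83 ± 0.08 and 1.25 ± 0.08 with TNF-alpha), and Pdk4 rose at 12 h (1.68 ± 0.17 with IL-1beta) and fell at 72 h (-1.62 ± 0.17). Among 21 tested genes of other sugar carriers and glycolytic helpers, 6 rose and 6 fell with IL-1beta and 5 and 5 with TNF-alpha at 12 h, and at 72 h 8 and 7 with IL-1beta and 5 and 6 with TNF-alpha. Of 14 genes of pyruvate entry 3 rose and 4 fell with IL-1beta and 5 and 3 with TNF-alpha at 12 h, and at 72 h 7 and 4 with IL-1beta and 6 and 4 with TNF-alpha. The sugar carrier Slc2a6 rose with TNF-alpha by 4.26 ± 0.26 at 12 h and 4.41 ± 0.27 at 72 h, more than any of the 32 genes. Emb, which helps bring monocarboxylate carriers to the membrane, rose with IL-1beta (0.64 ± 0.08 and 1.12 ± 0.08), and Bsg, the partner of both lactate carriers, fell with TNF-alpha at 72 h (-0.88 ± 0.09).

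Of 22 other glycogen genes 2 rose and 7 fell with IL-1beta and 3 and 8 with TNF-alpha at 12 h, and at 72 h 4 and 10 with IL-1beta and 3 and 10 with TNF-alpha. Gbe1, the branching enzyme, rose with IL-1beta by 1.07 ± 0.08 at 12 h and 0.65 ± 0.08 at 72 h, and with TNF-alpha by 0.66 ± 0.08 and 1.25 ± 0.08. Ppp1r3c, a glycogen-targeting phosphatase subunit, fell with IL-1beta at 12 h (-1.58 ± 0.13), and Epm2a, laforin, fell with both (-1.29 ± 0.11 and -1.24 ± 0.11). The 6 genes that make sugar nucleotides for matrix showed 0 higher and 6 lower with IL-1beta and 0 and 3 with TNF-alpha at 72 h, among them Ugdh, which makes UDP-glucuronate (-0.65 ± 0.07 with TNF-alpha), and Gfpt1 (-0.49 ± 0.07 with IL-1beta). Of 5 tested gluconeogenesis genes 4 fell at 72 h with each cytokine, for example Fbp2 with IL-1beta (-2.95 ± 0.26) and Fbp1 with TNF-alpha (-1.40 ± 0.18).

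HIF targets outside glycolysis were counted in the same way. With IL-1beta 0 of 14 rose and 13 fell at 12 h, and 11 rose and 1 fell at 72 h, with medians of -1.11 and 0.60. TNF-alpha gave 13 lower and 1 higher at 12 h, and 12 lower and 1 higher at 72 h. Vegfa, the vessel growth factor, changed by -1.69 ± 0.11 and 0.98 ± 0.10 with IL-1beta at 12 and 72 h, and Car9, a carbonic anhydrase, by -4.77 ± 0.25 with TNF-alpha at 72 h. Of 8 HIF regulators 2 rose and 3 fell with IL-1beta and 1 and 5 with TNF-alpha at 12 h, and at 72 h 5 and 0 with IL-1beta and 0 and 4 with TNF-alpha. Epas1, which encodes HIF-2alpha, rose with IL-1beta by 1.64 ± 0.13 at 12 h and 2.48 ± 0.12 at 72 h. Egln3, a prolyl hydroxylase that marks HIF for decay and is itself a HIF target, fell at 12 h with IL-1beta (-2.31 ± 0.12) and TNF-alpha (-2.08 ± 0.12) and at 72 h was higher with IL-1beta (0.98 ± 0.11) and lower with TNF-alpha (-1.67 ± 0.12). Of 7 tested genes of glucose sensing and MYC 2 rose and 2 fell with IL-1beta and 1 and 3 with TNF-alpha at 12 h, and at 72 h 2 and 1 with IL-1beta and 1 and 2 with TNF-alpha. Txnip, a glucose-responsive brake on glucose uptake, fell at 12 h with IL-1beta (-1.04 ± 0.07) and TNF-alpha (-1.04 ± 0.07).

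Cell type markers moved with the cytokines as well. The 15 chondrocyte markers summed to 18440 to 19930 CPM with IL-1beta at 72 h, 39940 to 47880 CPM with TNF-alpha and 87720 to 116500 CPM in controls. Adipocyte markers summed to 663 to 694 CPM with IL-1beta at 72 h, 222 to 318 CPM with TNF-alpha and 281 to 377 CPM in controls, with 5, 3 and 5 of the 6 at a mean of 1 CPM or more, and Fabp4 rose with IL-1beta by 1.14 ± 0.16. Macrophage and leukocyte markers summed to between 16.8 and 70.4 CPM over all libraries with 2 or 3 of 8 at a group mean of 1 CPM or more, neuron markers to between 40.6 and 119 CPM, pluripotent stem cell markers to 3.25 CPM at most, endothelial markers to 2.97 CPM at most and hepatocyte markers to 0.561 CPM at most. The part of these shifts in the values of the 32 genes was not tested.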

How the data were processed

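RNA of 39 mRNA libraries was sequenced, and the authors deposited 1 table of raw read counts per gene, with whole numbers, not normalised. The columns of IL-1beta 4 h b and TNF-alpha 72 h b held only even counts for the 32 genes and were used as given. Per the submitters' processing notes, the tools were featureCounts, STAR, cutadapt and Trimmomatic and the build was mm10, with no role or version, and the labels name ribosomal RNA depletion with Ribo-Zero Gold. How strand and reads that match several places were handled is not given in the sources used here, so reads of overlapping or copied genes cannot be told apart. The table lists 52459 named genes, and 2199 lines with no name held 6.57% of the counts in the column of control 0 h b. That column (220180 counts, highest correlation with any other library 0.189) was left out as misaligned.

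Counts of 38 libraries were scaled by edgeR's TMM factors (0.864 to 1.12), filtered with filterByExpr (18857 genes, 99.9% of counts kept) and fitted in 1 quasi-likelihood model with a coefficient for each group (edgeR 4.0.16, R 4.3.3; common biological coefficient of variation 8.26%). P-values were adjusted by Benjamini-Hochberg over all genes tested. A standard error is the absolute log2 fold change divided by the root of F. Levels per length are CPM divided by the length given in the deposited table, since no reference transcript length was at hand, and the authors do not say how that length was made. Tools were tested on simulated data. Alternatives were DESeq2 1.42.0, other scalings, no filter, only the libraries compared, a block by replicate letter, control 12 h in place of control 4 h for TNF-alpha at 4 h, and leaving out each library in turn. All 32 genes are named. Genes of the other lists were named from among the called genes with the 3 smallest p-values and a mean of at least 1 CPM, at 12 h and 72 h. Only a part of these are named, so the named genes do not stand for their lists. The 32 genes and the lists were chosen with earlier results of these data known. Intervals and floors of counts are not given, since libraries are compared by their spread. In no case did 2 libraries of a group agree within sampling noise.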

Additional observations from a re-analysis of the deposited data

Results flagged for a closer look

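The IL-1beta effect differed between 72 h and 12 h, by a test of the difference itself, for 22 of the 32 genes. For 15 of them the effect was called lower at 12 h and higher at 72 h, so the groups moved opposite ways at these times. The log2 difference (effect at 72 h minus effect at 12 h) was 2.58 for Gys1, 2.55 for Slc16a3, 2.42 for Pfkl, 2.25 for Pfkfb3, 2.19 for Tpi1 and 2.14 for Ldha. It was 1.93 for Pgam1, 1.76 for Eno1, 1.53 for Pygl, 1.32 for Aldoa, 1.31 for Gpi1, 1.17 for Slc2a3, 1.09 for Pkm, 0.78 for Pgm2 and 0.59 for Hk2. All 15 differences kept their call in every alternative. These genes were picked by opposite calls at the same times, so this is no separate evidence. The 12 h calls of Hk2 and Pgm2 and the 72 h calls of Slc2a3 and Pgam1 did not hold in every alternative.

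The TNF-alpha effect differed between the same times for 8 genes. Among these Slc16a1 was called lower at 12 h and higher at 72 h, with a log2 difference of 0.73, but its 12 h call was lost without TNF-alpha 12 h c.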

How the results depend on the processing

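Of 301 called values of the 32 genes, DESeq2 ended 5 calls, median-of-ratios factors 5, library totals alone 22, no low-count filter 16 and only the libraries compared 18, and leaving out 1 library ended 67 of the 301 in at least 1 fit. The sign turned in 1 case, Slc2a4 with TNF-alpha at 4 h, which was 0.18 against control 12 h. The count of called genes moved by over 1.5 times for IL-1beta at 4 h with library totals alone (23, beside 15) and for TNF-alpha at 4 h against control 12 h (19, beside 10). Leaving out 1 library gave 5 to 9 for TNF-alpha at 4 h (beside 10), 2 to 5 for IL-1beta against TNF-alpha at 4 h (beside 4) and 4 to 13 for control 4 h against 0 h (beside 14). The causes were not tested.

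Same-lettered replicates did not deviate together (0 of 44 pairs correlated over 0.1, and 14 correlated best with their own letter), so the letters give no pairing. With the letter as a replicate block 6 of the 301 calls were lost, and the counts were 21 for IL-1beta at 72 h, 9 for TNF-alpha at 4 h, 26 for TNF-alpha at 12 h, 15 for control 4 h against 0 h and 21 for the change of the IL-1beta effect. Over all genes, called counts moved by over 1.5 times for IL-1beta against TNF-alpha at 4 h (1549 from only the libraries compared and 1431 without TNF-alpha 4 h a, beside 2332), for the same contrast at 12 h (908 from only the libraries compared, beside 1995) and for control 4 h against 0 h (1530 without control 0 h c, beside 3839). Library totals alone shifted the median of all genes by -0.10 for IL-1beta at 4 h, 0.11 for TNF-alpha at 72 h, -0.10 for IL-1beta against TNF-alpha at 72 h and 0.12 for control 24 h against 12 h. The share of all calls that were higher was then 28.4% beside 47.4%, 67.1% beside 49.3%, 34.9% beside 48.7% and 77.1% beside 47.2% in these 4 comparisons. It was 40.5% beside 50.7% for TNF-alpha at 4 h, 27.2% beside 46.1% for IL-1beta against TNF-alpha at 4 h and 65.4% beside 50.5% for control 72 h against 12 h.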
